A study of Homo sapiens with 171 samples.

Results

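Untreated cultures of HeyC2 were set against untreated cultures of HeyA8, a pair of human ovarian cancer cell lines that are both known as derivatives of the ovarian carcinoma line HEY. The comparison took 3 untreated HeyC2 cultures and 3 untreated HeyA8 cultures, 6 of the 167 cultures of the series, all from the labels' batch 1. HeyA8 cultures 1 and 2 had each been hybridised a second time, and the repeat array was averaged with the first, so the 6 cultures stood on 8 arrays. The series measured total RNA of 46 ovarian cancer lines, untreated or treated with cisplatin, on 171 Affymetrix arrays. Cisplatin is a platinum drug that crosslinks DNA. The 3 cisplatin-treated HeyC2 cultures and the 2 cisplatin-treated HeyA8 cultures, also of batch 1, had received each line's own GI50 concentration (a dose set by growth inhibition) for 48 h, so the drug dose need not be equal in the lines. Neither line carries an engineered allele in the labels. The labels do not say that cultures of a line were grown separately, so p-values measure only the spread between these samples, and each line is a single derivative, so nothing here averages over several sublines.

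Sublines of 1 tumour line share most of their genome and drift apart by selection, mutation and stable changes in gene regulation, so genes that differ between them stand out against a common background. Several of the programs described here work as units. When amino acids run short or the endoplasmic reticulum is under stress, the transcription factor ATF4 raises genes for amino acid synthesis, transport and stress adaptation. When cell sterol falls, SREBP2 raises the enzymes of cholesterol synthesis together. Replication-dependent histone genes lie in clusters, are transcribed mostly during S phase and make the proteins around which new DNA is wrapped.

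Each value below is a log2 RMA level, on which 1 unit is a 2-fold difference, and each difference is HeyC2 minus HeyA8. The gene medians were 6.57 in HeyC2 and 6.53 in HeyA8, and the 5th percentile of all genes, a guide to the array floor, was 3.33 in HeyC2 and 3.27 in HeyA8. The label ovarian cancer cell line was checked against cell type markers. KRT8 and KRT18, keratins of simple epithelium, were among the highest genes of both lines (KRT8 12.14 in HeyC2 and 12.35 in HeyA8; KRT18 12.07 in HeyC2 and 12.45 in HeyA8), as was the mesenchymal filament VIM (12.80 in HeyC2 and 12.55 in HeyA8). PAX8, a lineage factor of Müllerian epithelium, stood at 9.44 in HeyC2 and 9.78 in HeyA8. It was the highest of 28 ovarian lineage and histotype markers, of which only 6 in HeyC2 and 7 in HeyA8 lay over the gene median. Those below it included MUC16 (5.16 in HeyC2 and 5.01 in HeyA8) and WFDC2 (5.96 in HeyC2 and 5.54 in HeyA8). Of the markers measured, 13 of 39 epithelial genes in HeyC2 and 12 in HeyA8 lay over the gene median, as did 18 of 29 mesenchymal genes in HeyC2 and 19 in HeyA8. Of 14 leukocyte markers, 2 in HeyC2 and 1 in HeyA8 lay over the median, with CD68 (9.86 in HeyC2 and 7.99 in HeyA8) the highest and the defining PTPRC near the floor (2.78 in HeyC2 and 2.82 in HeyA8). Of 12 fibroblast and mesothelial markers, 6 in HeyC2 and 4 in HeyA8 lay over the median, among them PDPN (10.07 in HeyC2 and 10.41 in HeyA8) and FAP (7.18 in HeyC2 and 8.86 in HeyA8), while DCN was near the floor (2.79 in HeyC2 and 2.85 in HeyA8). Among 11 endothelial markers, CDH5 (9.48 in HeyC2 and 10.36 in HeyA8) and TIE1 (9.58 in HeyC2 and 9.34 in HeyA8) were well above the median, while PECAM1 stood at 4.54 in HeyC2 and 4.38 in HeyA8. A part of other cell types in the results was not tested.

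Of 18417 genes tested with limma, 4747 differed between the lines after Benjamini-Hochberg adjustment at 0.05, a background of 25.8%. HeyC2 was higher for 2261 genes (12.3%) and lower for 2486 (13.5%). With every array shifted to 1 median, the split was 1750 higher and 2927 lower. Most called differences were small, with a median absolute size of 0.49. Those of at least 2-fold numbered 481 (2.61%), with 193 higher (1.05%) and 288 lower (1.56%). At least 4-fold differences were called for 28 higher and 51 lower genes. The 3 HeyC2 values lay wholly apart from the 3 HeyA8 values for 7623 genes (41.4%), with 4090 higher in HeyC2 (22.2%) and 3533 lower (19.2%). Array levels correlated at 0.978 to 0.982 over genes between cultures of the 2 lines, at 0.993 to 0.994 within HeyC2 and at 0.995 to 0.997 within HeyA8. The line means were 2-fold or more apart for 482 genes, against 2301 to 3207 genes between HeyC2 and the other 5 untreated lines of batch 1, and 2265 to 3383 between HeyA8 and those lines.

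The largest differences with HeyC2 higher included genes known from neural, junctional and immune cells. NAP1L2, a nucleosome assembly protein known from neurons, had levels of 7.88, 8.04 and 7.90 in HeyC2, against 3.95, 3.85 and 3.99 in HeyA8, and was 16.1-fold higher in HeyC2 (log2 difference 4.01, SE 0.192, adjusted p = 2.03e-12). No HeyA8 culture came near any HeyC2 culture. In these bulk samples, fewer cells with a transcript and less of it per cell cannot be told apart. CLDN11, the tight junction claudin of myelin and of Sertoli cells, had levels of 11.01, 10.82 and 11.18 in HeyC2, against 7.15, 7.13 and 7.13 in HeyA8, and was 14.6-fold higher in HeyC2 (log2 difference 3.87, SE 0.14, adjusted p = 3.83e-14). The sialic acid receptor SIGLEC15, known from macrophages and osteoclasts, had levels of 10.46, 10.21 and 10.39 in HeyC2, against 7.23, 6.67 and 6.83 in HeyA8 (difference 3.45, adjusted p = 1.91e-11). The other 5 batch 1 lines spanned 5.81 to 6.03, below every HeyC2 culture. SERPINB5, the serpin maspin, had levels of 7.01, 6.26 and 6.74 in HeyC2, against 3.21, 3.37 and 3.54 in HeyA8 and was 9.83-fold higher. TXNIP, the inhibitor of thioredoxin that responds to glucose, had levels of 11.55, 11.33 and 11.15 in HeyC2, against 8.25, 8.17 and 8.48 in HeyA8 (difference 3.04, SE 0.111, adjusted p = 3.83e-14). The sorting nexin SNX10 was higher by 3.36, the lymphoid phosphatase PTPN22 by 2.67 and the scavenger receptor CD163L1 by 2.55.

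The largest differences with HeyC2 lower included a BMP antagonist, a desmosome protein, matrix genes and a metabolic enzyme. OCIAD2 had the largest difference of all genes tested, with levels of 4.06, 4.07 and 3.90 in HeyC2, against 8.81, 8.86 and 8.95 in HeyA8. It was 29.2-fold lower in HeyC2 (log2 difference -4.87, SE 0.153, adjusted p = 6.28e-15), and the HeyC2 values lay between the 5th and the 25th percentile of all genes (3.33 and 5.01). GREM1, the secreted antagonist gremlin of bone morphogenetic proteins, had levels of 5.27, 5.24 and 5.40 in HeyC2, against 9.88, 9.77 and 10.05 in HeyA8, and was 24.2-fold lower in HeyC2 (log2 difference -4.60, SE 0.139, adjusted p = 5.52e-15). DSP, desmoplakin, which anchors keratin filaments at desmosomes, had levels of 4.27, 4.55 and 4.50 in HeyC2, against 8.72, 8.61 and 8.69 in HeyA8 and was 18.8-fold lower in HeyC2 (log2 difference -4.23, SE 0.153, adjusted p = 3.83e-14). GLUL, glutamine synthetase, had levels of 5.65, 6.49 and 6.34 in HeyC2, against 10.18, 10.23 and 9.97 in HeyA8 and was 15.6-fold lower. A second GLUL probe set gave a smaller difference of -1.35 with the same sign. LAMA4, a laminin chain of endothelial and muscle basement membranes, was lower, with a log2 difference of -3.56 (SE 0.146, adjusted p = 2.07e-13). The cell cycle regulator RGCC (-3.84), the death-associated kinase DAPK1 (-3.50), the lysophosphatidic acid receptor LPAR1 (-3.30) and the metalloproteinase inhibitor TIMP3 (-2.97) were also lower with no overlap between the lines.

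**Figure D1:**
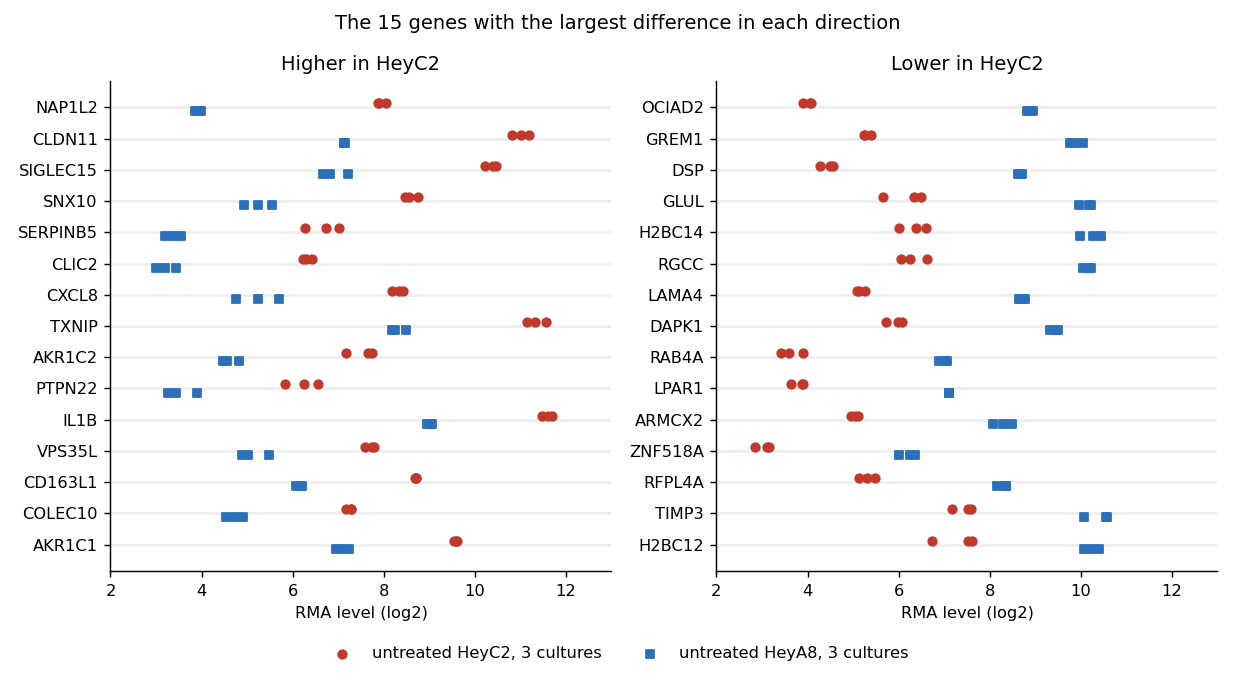
Log2 RMA levels (horizontal axis) of the 15 genes with the largest difference in each direction, with circles for the 3 untreated HeyC2 cultures and squares for the 3 untreated HeyA8 cultures. OCIAD2 lies near 4 in HeyC2 and near 9 in HeyA8, and the groups do not overlap for any gene drawn.

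The amino acid stress response had the largest share of members higher in HeyC2 among the lists. Of its 20 measured genes, 17 were higher, 7 of them at least 2-fold, and 1 was lower, with a median difference of 0.67 against 0.06 over all genes. The genes without a call were ATF3 (0.26, adjusted p = 0.0899) and the amino acid transporter subunit SLC7A5 (0.17, adjusted p = 0.256). The lower gene was ALDH1L2 (-0.69), a mitochondrial enzyme of folate metabolism. ASNS, asparagine synthetase, which makes asparagine from aspartate and glutamine, had levels of 10.37, 10.24 and 10.12 in HeyC2, against 7.78, 7.68 and 8.32 in HeyA8, and was 4.98-fold higher in HeyC2 (log2 difference 2.32, SE 0.135, adjusted p = 4.51e-11). Every HeyC2 culture lay above every HeyA8 culture, and HeyA8 culture 3 was the highest of its group. In the same cultures GLUL, which makes glutamine, was lower, as given above.

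Stress effectors of the list were higher in HeyC2 as well. DDIT4, an inhibitor of mTORC1 signalling, had levels of 10.01, 9.83 and 9.88 in HeyC2, against 7.73, 7.51 and 8.17 in HeyA8 and was 4.3-fold higher in HeyC2 (log2 difference 2.10, SE 0.151, adjusted p = 1.18e-09). DDIT3, the transcription factor CHOP of the stress response, had levels of 8.71, 8.32 and 8.21 in HeyC2, against 6.80, 6.48 and 6.85 in HeyA8 and was 3.27-fold higher in HeyC2 (log2 difference 1.71, SE 0.137, adjusted p = 6.63e-09). The groups did not overlap for either gene. SLC7A11, the cystine importer that feeds glutathione synthesis, had levels of 10.66, 10.56 and 10.47 in HeyC2, against 8.99, 8.90 and 9.46 in HeyA8 (difference 1.44, adjusted p = 9.42e-08). CHAC1, which breaks down glutathione and was picked after its values were seen, had levels of 8.68, 8.38 and 8.65 in HeyC2, against 7.11, 6.87 and 7.62 in HeyA8 (difference 1.37, adjusted p = 5.7e-06). The stress sensor SESN2 was higher by 1.33. Serine synthesis genes of the list were also higher, with PHGDH at 0.98 and PSAT1 at 0.96. ATF4 itself was higher by 0.33 (adjusted p = 0.0133). Of 18 genes of the unfolded protein response, a related stress program of the endoplasmic reticulum, 5 were higher and 0 lower by limma (unadjusted p under 0.05 gave 6 higher and 0 lower). The higher count was 2 without HeyC2 culture 1, 3 without HeyC2 culture 2 and 2 without HeyA8 culture 2. The share of this list called in either direction, 27.8%, was near the 25.8% over all genes.

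Promoters of ASNS and CHAC1 are shown because both genes carry a match to the motif of the amino acid response element, TGATGNAA, searched on both strands in the 250 bases before the RefSeq start (GRCh38.p14). The ASNS sequence is chr7:97872409-97872558, minus strand, and the CHAC1 sequence is chr15:40953221-40953470, plus strand. Capitals mark the match, which in CHAC1 reads on the other strand.
ASNS: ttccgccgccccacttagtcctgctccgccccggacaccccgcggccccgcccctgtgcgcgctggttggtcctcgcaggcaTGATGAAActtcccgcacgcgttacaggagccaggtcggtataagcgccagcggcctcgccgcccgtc
CHAC1: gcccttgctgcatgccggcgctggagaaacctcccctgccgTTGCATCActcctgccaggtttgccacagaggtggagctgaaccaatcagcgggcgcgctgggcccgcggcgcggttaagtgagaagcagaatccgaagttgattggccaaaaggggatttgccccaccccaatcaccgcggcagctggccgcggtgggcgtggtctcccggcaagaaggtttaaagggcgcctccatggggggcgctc
Counted from the start, the match began at position -68 in ASNS and at position -209 in CHAC1. ATF3, which had no call, also held one. In all, 3 of the 16 list genes with a promoter sequence had a match, against 312 of 14221 genes (2.19%). A match is a run of letters and does not show binding.

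Cholesterol synthesis ran the other way. Of 17 measured genes of cholesterol synthesis and uptake, 9 were lower in HeyC2 and 0 higher by limma (0 higher and 11 lower at an unadjusted p under 0.05), with a median difference of -0.33. HMGCS1, which makes the HMG-CoA that enters the pathway, had levels of 9.64, 9.69 and 9.50 in HeyC2, against 11.17, 11.20 and 11.02 in HeyA8, and was 2.88-fold lower in HeyC2 (log2 difference -1.53, SE 0.114, adjusted p = 2.31e-09). SQLE, squalene epoxidase, had levels of 10.76, 10.70 and 10.70 in HeyC2, against 11.88, 11.91 and 11.88 in HeyA8, and was 2.25-fold lower in HeyC2 (log2 difference -1.17, SE 0.0904, adjusted p = 3.91e-09). The 3 cultures of each line were close to each other and far from the other line. SC5D, a late sterol desaturase, had levels of 8.60, 8.45 and 8.32 in HeyC2, against 9.83, 9.85 and 9.70 in HeyA8 (difference -1.34). MSMO1, a sterol demethylation enzyme, was lower by a difference of -0.96, IDI1 by -0.85 and the sterol feedback gene INSIG1 by -0.36. With every array shifted to 1 median, 11 of the 17 were lower. Over all leave-one-out fits, 8 to 9 were lower.

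**Figure D2:**
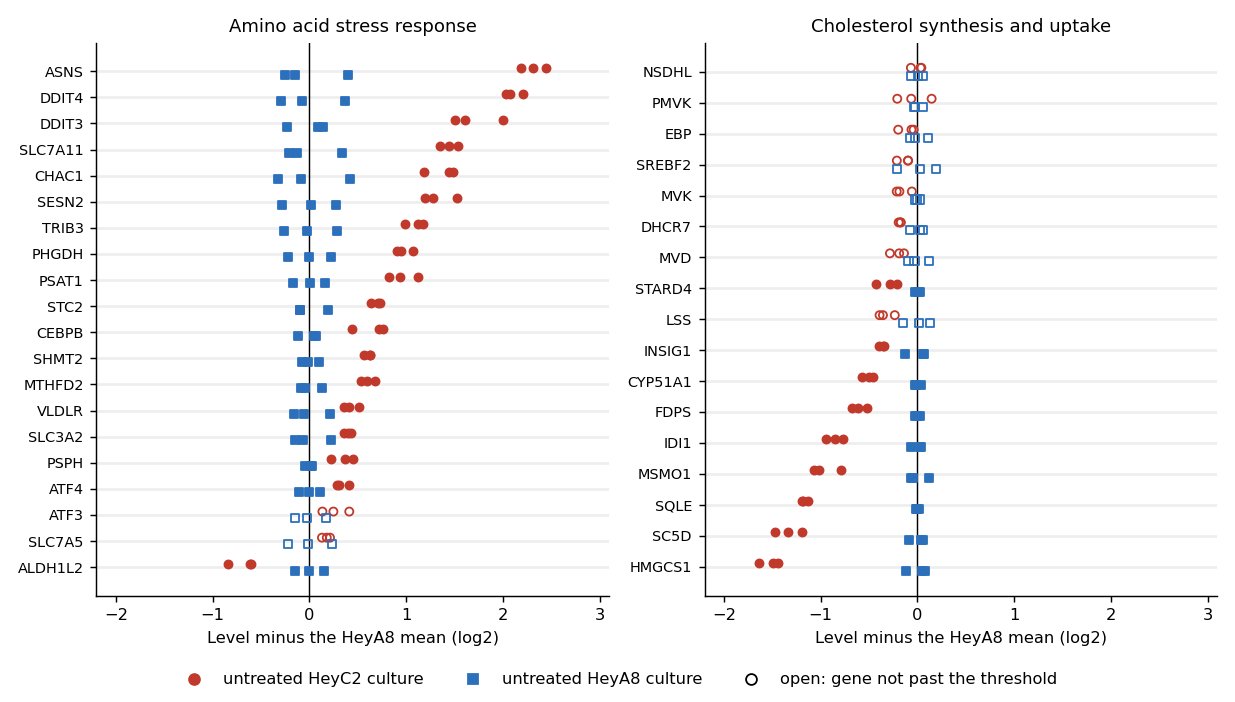
Log2 level minus the mean of the 3 HeyA8 cultures (horizontal axis) for the 20 amino acid stress response genes (left) and the 17 cholesterol genes (right), with circles for HeyC2 cultures and squares for HeyA8 cultures, open where the gene was not past the threshold. On the left panel 17 genes are past the threshold with HeyC2 to the right and 1, ALDH1L2, with HeyC2 to the left, and on the right panel 9 genes are past it with HeyC2 to the left.

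Aldo-keto reductases of the AKR1C cluster, which reduce steroids, prostaglandins and reactive aldehydes, were higher in HeyC2. AKR1C1 had levels of 9.61, 9.59 and 9.54 in HeyC2, against 7.09, 7.23 and 6.95 in HeyA8 and was 5.62-fold higher (adjusted p = 1.58e-12). A second AKR1C1 probe set differed by 0.18. AKR1C2 had levels of 7.74, 7.66 and 7.17 in HeyC2, against 4.83, 4.47 and 4.56 in HeyA8 and was 7.51-fold higher. AKR1C3 had levels of 10.16, 10.22 and 10.16 in HeyC2, against 8.20, 8.25 and 8.40 in HeyA8 (difference 1.90). The lines did not overlap for any of these genes. The AKR1C genes are near-identical in sequence, so probes may not tell them apart. They are members of the list of NRF2 targets, the antioxidant genes under the factor NRF2, of which 10 of 21 were higher and 3 lower. Only 4 AKR1C genes were called higher, so the 10 higher members included genes outside the cluster. Of the whole list, 61.9% had a call, against 25.8% over all genes. The members outside the cluster did not all go that way, and those named next are exceptions picked after their values were seen. The quinone reductase NQO1 was lower (-0.88), as was GSR (-0.36), the glutathione reductase, whereas HMOX1 (0.09, adjusted p = 0.62) and GCLM (0.26, adjusted p = 0.159) had no call. MT1M, a metallothionein that binds metal ions, was lower by a difference of -2.37, and 2 of 10 metallothioneins were lower and 0 higher (0 higher and 2 lower at an unadjusted p under 0.05). Without HeyC2 culture 1, 1 was lower, and MT1F (-0.55) lost its call there and with repeat arrays left out. The share of metallothioneins called in either direction was below the 25.8% over all genes.

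Genes of the dividing cell were lower in HeyC2 in several lists. Of 29 mitosis genes, 16 were lower and 1, CDC25C, was higher, with a median difference of -0.34. CCNA2, cyclin A2, had levels of 9.51, 9.43 and 9.36 in HeyC2, against 10.35, 10.33 and 10.23 in HeyA8 (difference -0.87, SE 0.106, adjusted p = 2.81e-06). The spindle checkpoint kinase BUB1B was lower by a difference of -0.72 and its partner MAD2L1 by -0.78. Of 34 DNA replication genes, 13 were lower and 0 higher (1 higher and 18 lower at an unadjusted p under 0.05; 1 higher without HeyA8 culture 3), among the lower ones the helicase subunits MCM4 (-0.73) and MCM6 (-0.58), the helicase loader CDC6 (-0.72) and the ribonucleotide reductase subunit RRM2 (-0.69). These differences were below 2-fold. Of 27 homologous recombination and Fanconi genes, 11 were lower and 2 higher, with the checkpoint kinase CHEK1 at -0.66, the helicase BLM at -0.68 and BRCA1, without a call, at -0.13. The higher count of that list was 0 without HeyC2 culture 1 or 3, or HeyA8 culture 2, and 1 without HeyA8 culture 1, and in treated cultures 5 of the list were higher and 1 lower. CCNE2, the cyclin E2 of S phase entry, had levels of 8.36, 8.16 and 8.27 in HeyC2, against 9.44, 9.46 and 9.17 in HeyA8, and was 2.13-fold lower in HeyC2 (log2 difference -1.09, SE 0.132, adjusted p = 2.3e-06). CCND2 was lower (-1.39), as was the CDK inhibitor CDKN1B (-0.72), and the G1 list held 7 lower and 1 higher of 21 (2 higher without HeyC2 culture 3). The labels give no growth rate or cell cycle measure.

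Replication-dependent histone genes, a family picked after the differences were seen, held some of the largest single differences. Of 57 measured, 16 were lower in HeyC2, 8 of them at least 2-fold, and 1, H1-3, was higher (0.79). The family's median difference was -0.16, and 40 members had no call. The share called in either direction, 29.8%, was near the 25.8% over all genes. Over all genes, 13.5% were lower and 1.56% were lower by at least 2-fold. H2BC14 had levels of 6.003, 6.61 and 6.37 in HeyC2, against 10.44, 9.98 and 10.27 in HeyA8, and was 15-fold lower in HeyC2 (log2 difference -3.90, SE 0.192, adjusted p = 3.29e-12). H2BC12 had levels of 7.61, 6.73 and 7.52 in HeyC2, against 10.40, 10.24 and 10.07 in HeyA8 (difference -2.95, adjusted p = 4.29e-10). H3C12, which codes for histone H3, had levels of 4.78, 5.37 and 5.07 in HeyC2, against 7.83, 7.87 and 8.10 in HeyA8 (difference -2.86). H3C11 was highly expressed in both lines, with levels of 10.25, 10.18 and 10.35 in HeyC2, against 12.48, 12.31 and 12.58 in HeyA8 (difference -2.20). The lines did not overlap for any of these. The other 5 batch 1 lines spanned 8.80 to 12.45 for H2BC14, above HeyC2. Members of the family are close in sequence, and most of their mRNAs lack a poly(A) tail, so a level can include a near copy and can depend on how RNA was primed.

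The promoters of H2BC14 and H2BC12 are shown because H2B promoters carry the octamer motif ATTTGCAT, known to bind the factor OCT1 in the S phase control of H2B. The window is chr6:27814872-27815021, plus strand, for H2BC14, and chr6:27146859-27147008, minus strand, for H2BC12 (RefSeq, GRCh38.p14). Capitals mark the motif.
H2BC14: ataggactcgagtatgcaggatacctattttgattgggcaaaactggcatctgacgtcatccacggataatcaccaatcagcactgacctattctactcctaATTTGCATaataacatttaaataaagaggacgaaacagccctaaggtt
H2BC12: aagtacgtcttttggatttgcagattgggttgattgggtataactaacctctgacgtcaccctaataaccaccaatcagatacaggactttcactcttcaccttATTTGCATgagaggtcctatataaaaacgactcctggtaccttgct
The motif began at position -48 from the start in H2BC14 and at position -46 in H2BC12. It was found on either strand in the 250 bases before the start for 13 of 16 H2B genes with a sequence, for 7 of the 7 that were lower, for 23 of 52 histone genes and for 223 of 14221 genes (1.57%). The motif thus lay in most H2B promoters.

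Runs of neighbouring genes differed together. Over 18161 windows of 10 neighbouring genes the median window had a difference of 0.06, and windows between the 5th and the 95th percentile lay between -0.29 and 0.24. The lowest window ran from H2AC13 to H3C12 in the histone cluster on chromosome 6 with a median of -1.35, and 7 of its 10 genes were lower. The next were 2 zinc finger clusters on chromosome 19, from ZNF14 to ZNF626 (-0.95) and from ZSCAN5B to ZNF470 (-0.89). The highest window held the protocadherin alpha genes PCDHA2 to PCDHA12 on chromosome 5 (0.72), whose transcripts share their last exons, so their probes are not independent. The other high windows lay on chromosome 17, from SLC25A11 to ZNF232 (0.54) and from MRPL58 to MRPS7 (0.53). Windows were ranked by these values, which are a description with no test.

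Zinc finger genes and small nucleolar RNAs, families also picked after the differences were seen, leaned lower in HeyC2. Of 480 genes named ZNF, most of which code for DNA-binding repressors, 137 were lower (29 at least 2-fold) and 36 higher, with a median of -0.11. Without HeyA8 culture 2, 23 were higher. ZNF518A had levels of 2.85, 3.12 and 3.16 in HeyC2, against 6.37, 5.998 and 6.26 in HeyA8, and was 8.97-fold lower in HeyC2 (log2 difference -3.16, SE 0.165, adjusted p = 8.98e-12). The other 5 lines spanned 6.50 to 8.76, so all 3 HeyC2 cultures stood apart from them. ZNF844 (-2.56), ZNF626 (-2.43) and ZNF701 (-2.30) followed, with a second ZNF626 probe set at -0.47. Of 127 small nucleolar RNA genes, which guide the modification of ribosomal RNA, 42 were lower and 2 higher, with a median of -0.32 and SNORD14E at -1.42. The lower count was 28 to 37 without 1 culture, and the higher count was 0 without HeyC2 culture 1 or 3, or HeyA8 culture 2 or 3, and 1 without HeyC2 culture 2. In cisplatin-treated cultures only 5 of the 127 were lower and 2 higher, with a median of -0.065. The change of the difference with cisplatin was called for 0 of them. These RNAs are short and lie inside other genes' introns, so probes may read the host transcript.

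CXCL8, CXCL1, CXCL2 and IL1B, all inflammatory mediators, were higher in HeyC2. Of 30 cytokines and chemokines, 7 were higher and 5 lower (3 lower without HeyA8 culture 1). CXCL8, interleukin 8, which draws neutrophils, had levels of 8.34, 8.41 and 8.19 in HeyC2, against 5.24, 5.71 and 4.76 in HeyA8, and was 8.43-fold higher in HeyC2 (log2 difference 3.08, SE 0.197, adjusted p = 2.08e-10). IL1B, interleukin 1 beta, had levels of 11.70, 11.47 and 11.61 in HeyC2, against 9.03, 8.95 and 9.06 in HeyA8, and was 5.99-fold higher in HeyC2 (log2 difference 2.58, SE 0.167, adjusted p = 2.23e-10). Both lines were far above the other 5 lines of batch 1 for IL1B, which spanned 4.47 to 5.70. CXCL1, another neutrophil chemokine, had levels of 10.46, 10.29 and 10.77 in HeyC2, against 8.15, 7.996 and 7.97 in HeyA8 (difference 2.47), and CXCL2 was higher by 1.32. By contrast IL6 (-0.02, adjusted p = 0.954), IL1A (-0.58, adjusted p = 0.0501) and CCL2 (0.11, adjusted p = 0.573) had no call. Of 14 feedback targets of NF-kB, the factor behind much of this program, 1 was higher and 2 were lower, with SOD2 at -0.46 and NFKB1 at -0.38. The higher count was 0 without HeyC2 culture 2 or 3, or HeyA8 culture 2, and 3 without HeyA8 culture 3. RELB, called higher in the main fit, lost its call in every fit that left out 1 culture. It also lost it with the replicate block, with repeat arrays left out and with arrays shifted to 1 median. The share of the list called, 21.4%, was below the 25.8% over all genes. The acute phase genes SAA1 (-1.38) and SAA2 (-2.34) were lower, and a second SAA2 probe set gave -0.51.

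Receptors moved both ways, with 5 of 32 cytokine and chemokine receptors higher and 6 lower. CXCR4, the receptor of the chemokine CXCL12, had levels of 4.15, 4.48 and 4.42 in HeyC2, against 6.67, 6.58 and 6.75 in HeyA8, and was 4.98-fold lower in HeyC2 (log2 difference -2.32, SE 0.167, adjusted p = 1.41e-09). IL13RA2, the decoy receptor of interleukin 13, had levels of 9.98, 9.70 and 9.45 in HeyC2, against 8.13, 8.38 and 7.97 in HeyA8 (difference 1.55), whereas the other 5 lines spanned 2.44 to 3.51. LIFR, the receptor of leukaemia inhibitory factor, was lower (-1.43). Of 42 interferon-stimulated genes, 5 were higher and 7 lower, with IFI44 at 1.45 and PARP9 at -1.37. Their share called, 28.6%, was near the 25.8% over all genes. Of 21 antigen presentation genes, 2 were higher (1 without HeyA8 culture 2) and 7 lower, with the immunoproteasome subunit PSMB8 at -0.85. Pregnancy-specific glycoproteins, placental proteins of the CEA family, were higher for 4 of 7 genes, with PSG1 at 2.17 and PSG2 at 1.91. They are near copies of each other, and PSG3, the smallest of those at 2-fold, had no call without HeyC2 culture 1 or 3, or HeyA8 culture 1 or 2. The leukocyte markers CD68 (1.87) and ITGAX (1.10) were higher while PTPRC stayed near the floor in both lines.

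Adhesion and matrix genes differed in both directions. Of 39 epithelial adhesion and keratin genes, 8 were higher (5 without HeyA8 culture 2) and 6 lower. The desmosomal genes DSP, given above, and plakophilin PKP2 were lower, with PKP2 at -1.35, whereas the claudin CLDN1 (1.36) and the laminin chain LAMB3 (1.16) were higher. EPCAM, an epithelial surface protein, had levels of 2.06, 2.45 and 4.62 in HeyC2, against 6.16, 5.87 and 5.17 in HeyA8 (difference -2.69, SE 0.498, adjusted p = 0.000365). HeyC2 culture 3 stood far above the other HeyC2 cultures and close to the lowest HeyA8 culture, and a second EPCAM probe set gave -1.83. CDH1, E-cadherin, was low in both lines, with levels of 4.84, 4.79 and 4.997 in HeyC2, against 4.69, 4.65 and 4.88 in HeyA8 (adjusted p = 0.388). VIM (0.24, adjusted p = 0.205) and the repressor ZEB1 (0.05, adjusted p = 0.777) had no call, while SNAI2, the repressor Slug, had levels of 10.12, 10.001 and 10.07 in HeyC2, against 8.98, 9.18 and 8.96 in HeyA8 (difference 1.02). Of 29 mesenchymal genes, 5 were higher and 5 lower (3 lower without HeyC2 culture 2 or 3, or HeyA8 culture 1 or 3). They included TGFBI (1.49) and smooth muscle actin ACTA2 (1.23), which were higher, and FAP (-1.68) and TAGLN (-1.67), which were lower.

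Among matrix genes, 7 of 37 collagens and fibril assembly genes were higher (4 without HeyA8 culture 2) and 8 lower. VCAN, the matrix proteoglycan versican, had levels of 5.37, 4.95 and 5.70 in HeyC2, against 8.19, 7.97 and 7.93 in HeyA8, and was 6.48-fold lower in HeyC2 (log2 difference -2.70, SE 0.207, adjusted p = 3.61e-09). COL5A2 (-1.43) and COL1A1 (-1.04) were lower, whereas fibronectin FN1 (0.59) was higher. The surface proteoglycan SDC2, syndecan 2, was lower (-2.18). Of 27 integrins and laminins, 7 were higher and 5 lower, with ITGB8 (-1.39), an integrin that releases active TGF-beta, among the lower ones. Without HeyC2 culture 3 or HeyA8 culture 3, 4 of them were higher. Of 34 matrix proteases and inhibitors, 10 were higher, with the plasminogen activator PLAT at 1.31, and 7 lower. The lower count was 2 without HeyC2 culture 2, 4 without HeyC2 culture 3 or HeyA8 culture 2, and 3 without HeyA8 culture 1 or 3.

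In the TGF-beta and BMP list, 11 of 37 genes were lower, with the ligand BMP4 (-1.32) and its receptor BMPR2 (-0.88) lower along with the antagonist GREM1, and 5 were higher (2 without HeyC2 culture 3, 3 without HeyA8 culture 2). In the Wnt list, 10 of 34 were lower and 5 higher, with the nuclear factor LEF1 (1.94) and the secreted inhibitor SFRP1 (1.38) higher and the secreted DKK3 (-1.17, second probe set -0.17) lower. Notch genes were higher for 5 of 21 and lower for 1 (0 without HeyC2 culture 1 or 2, or HeyA8 culture 2 or 3), with the ligand JAG1 at 1.66 and the receptor NOTCH4 at 1.05. The 28.6% of Notch genes with a call was near the 25.8% over all genes. YAP and TEAD targets, genes of the Hippo pathway's output, were lower for 7 of 17, with CRIM1 at -0.81, and higher for 1, ANKRD1 (0.82). Ephrins, semaphorins and their receptors, which guide cell contact and migration, were higher for 13 of 36 and lower for 3. SEMA7A was higher by 1.34 and SEMA4B by 1.01. The higher count was 7 without HeyC2 culture 1, 8 without HeyC2 culture 3, 6 without HeyA8 culture 1 and 8 without HeyA8 culture 3. With every array shifted to 1 median, 7 were higher and 4 lower, and in treated cultures 8 were higher and 4 lower.

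Growth factor genes moved separately as well. MERTK, a receptor kinase that binds the ligand GAS6, had levels of 4.84, 4.74 and 4.70 in HeyC2, against 6.38, 6.38 and 6.32 in HeyA8, and was 3.03-fold lower in HeyC2 (log2 difference -1.60, SE 0.0872, adjusted p = 1.69e-11). AXL, its close relative and abundant in both lines, had no call (-0.07, adjusted p = 0.647). EGFR was higher by 0.40 (adjusted p = 0.0203), a call lost without HeyC2 culture 1 or 3, or HeyA8 culture 2. Its ligand HBEGF was higher (1.17), and the angiogenic factor VEGFA was higher (1.30) while the vasodilator ADM was lower (-1.51). Of 39 other receptor kinases and ligands, 10 were lower (6 without HeyC2 culture 1 or 2, or HeyA8 culture 1) and 4 higher.

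Genes tied to drug handling and to cisplatin damage had calls in both directions. Over all genes, 12.3% were higher and 13.5% lower, 25.8% in either direction. The share called was 35.7% for drug and copper transport and 42.3% for apoptosis regulators. For p53 targets it was 28.1%, near the share over all genes. Of 28 drug and copper transport genes, 7 were higher and 3 lower. The copper exporter ATP7B was higher by 0.43 (adjusted p = 0.00389), and the copper importer SLC31A1 had levels of 9.85, 9.81 and 9.89 in HeyC2, against 9.79, 9.73 and 9.87 in HeyA8 (adjusted p = 0.77). The drug pump ABCB1 had no call (0.33, adjusted p = 0.0832), whereas its relatives ABCB4 (-1.55) and ABCB6 (-1.13) were lower. The excision repair gene ERCC1 had no call (0.10, adjusted p = 0.543), and the mismatch repair gene MSH6 was lower (-0.78). Of 32 p53 targets, 6 were higher and 3 lower (1 lower without HeyC2 culture 2). Members with a call included SERPINB5, SESN2 and RRM2B (0.84) on the higher side and TIGAR (-0.43) on the lower. CDKN1A (0.15, adjusted p = 0.341) and MDM2 (0.35, adjusted p = 0.0593) had no call. Of 26 apoptosis regulators, 4 were higher, with CASP4 at 1.13, and 7 lower (4 without HeyA8 culture 1), with the caspase inhibitor CFLAR at -1.21 (second probe set -0.60).

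**Figure D3:**
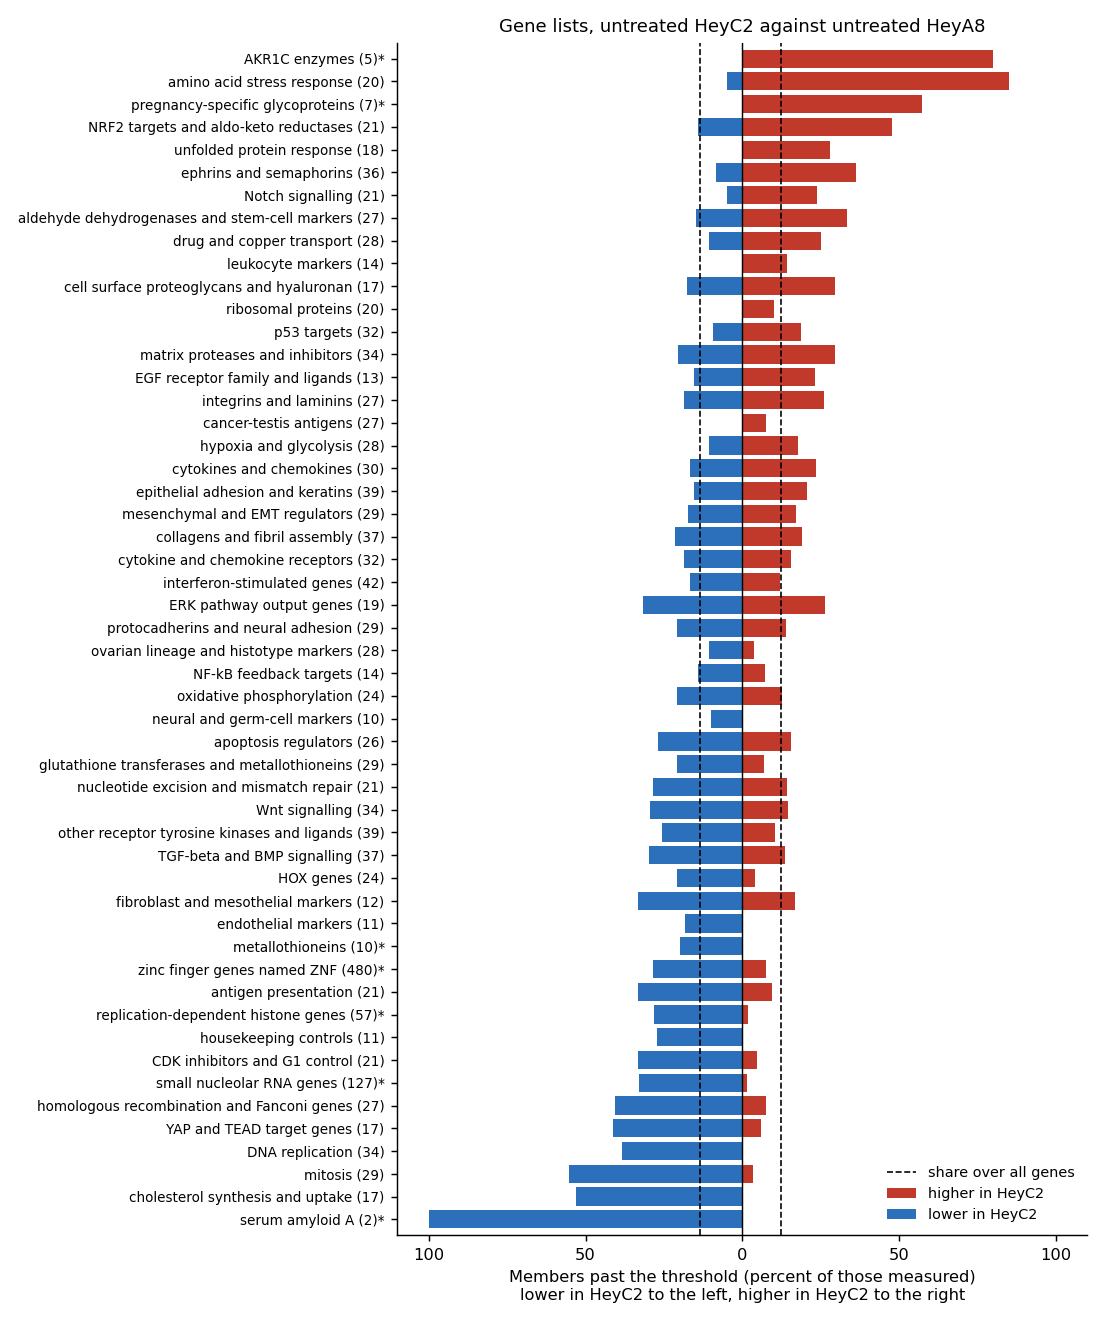
Members past the threshold as a percentage of those measured (horizontal axis), lower in HeyC2 to the left and higher to the right, for each gene list with its number of measured genes, an asterisk marking families picked after the differences were seen. Dashed lines are the shares over all genes, 13.5% lower and 12.3% higher, and the amino acid stress response and the AKR1C enzymes reach furthest right among lists while mitosis and cholesterol synthesis reach furthest left after the 2 serum amyloid A genes.

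Where the lines differed 2-fold, the other 5 untreated lines of batch 1 (A2780, OVCA420, OVCA429, PA-1 and TYK-nu) gave a range to set the pair against. Of the 481 genes, HeyC2 lay above all 5 for 105 and below all 5 for 84, whereas HeyA8 lay above all 5 for 121 and below all 5 for 46. HeyC2 was outside and also the higher of the pair for 88 and the lower for 81, and HeyA8 for 85 and 33. Both lines lay within the range of the 5 for 204. In either direction, HeyC2 lay outside that range for 189 of the 481 genes and HeyA8 for 167. Lying outside it was common over all 18417 genes as well, with 5350 for HeyC2 and 4736 for HeyA8. HeyC2 was at least 4-fold below every other line for 9 genes, and HeyA8 for 4. RAB4A, a GTPase of endosome recycling, was one of those low in HeyC2, with levels of 3.90, 3.58 and 3.41 in HeyC2, against 7.04, 7.07 and 6.88 in HeyA8 (difference -3.36, SE 0.151, adjusted p = 8.33e-13) and 6.85 to 7.74 in the other 5 lines. VPS35L, a subunit of a complex that returns cargo from endosomes to the surface, was low in HeyA8 instead, with levels of 7.73, 7.60 and 7.79 in HeyC2, against 4.88, 5.03 and 5.47 in HeyA8 (difference 2.58) and 8.32 to 10.05 in the other lines. The Hey line itself was measured only in batch 5, where its values are set on another scale, and only 1 array of it was untreated. The ranks that follow rest on that array and are given for a few genes of this text. Ranked within the 19 lines of that batch from the highest, Hey stood at 1 for IL1B, at 3 for NAP1L2, at 17 for RAB4A and VPS35L, and at 19 for ZNF518A and ASNS.

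Cisplatin-treated cultures gave a second measurement of the pair in other cultures, from 1 fit of both arms of the 7 lines. There, 3538 genes differed (19.2%), with HeyC2 higher for 1872 (10.2%) and lower for 1666 (9.05%), and 492 of them at least 2-fold (2.67%). Of the 481 genes 2-fold apart in untreated cultures, 476 had the same direction in treated ones, and 430 were called in that direction. Among the largest genes the treated differences were -5.09 for OCIAD2, -5.10 for GREM1, -4.23 for DSP, 4.81 for NAP1L2 and 3.03 for CXCL8. The cholesterol list had 11 genes lower, and HMGCS1 differed by -1.01. TXNIP had treated levels of 12.38, 12.25 and 12.25 in treated HeyC2, against 10.58 and 10.69 in treated HeyA8, without overlap, and the difference of 1.65 had no call (adjusted p = 0.188) in this fit, which pools the spread over 7 lines. Without HeyA8 cisplatin culture 3, 2256 genes were called.

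**Figure D4:**
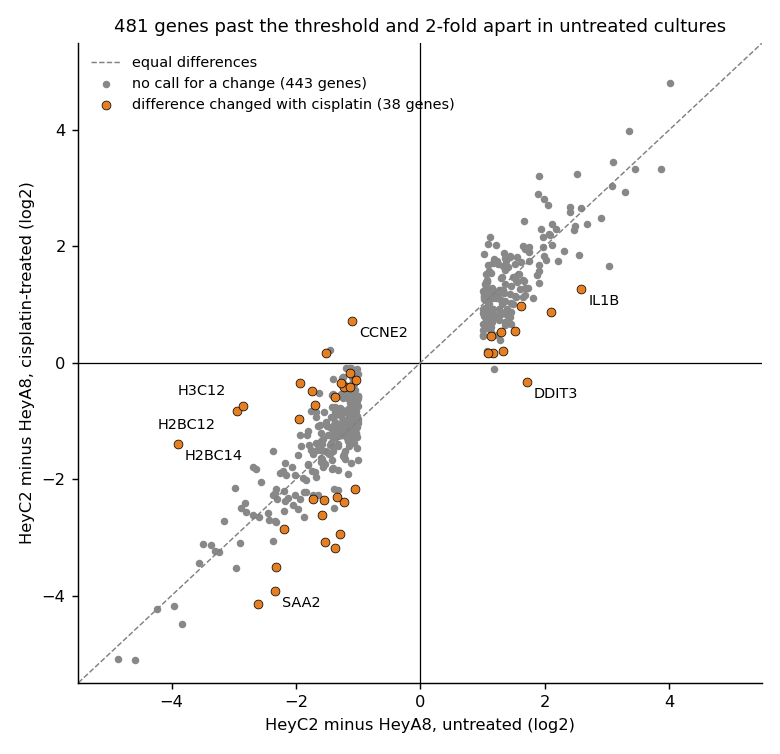
HeyC2 minus HeyA8 in cisplatin-treated cultures (vertical axis, log2) against the same difference in untreated cultures (horizontal axis, log2) for the 481 genes past the threshold and 2-fold apart in untreated cultures, with the dashed line for equal differences. Most points follow the line, and 38 filled orange points mark genes whose difference changed with cisplatin, H2BC14, H2BC12 and H3C12 among them.

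The difference itself changed with cisplatin for 146 genes (0.793%) by limma's interaction test. By the sign of the estimates alone, 68 of these had opposite directions in the 2 arms. Some of the 68 had no call in 1 arm, such as CDC6, at -0.72 untreated and 0.12 with cisplatin (adjusted p = 0.513 by limma). Of the 146 genes, 49 had a larger difference with cisplatin and 29 a smaller one, both with the same sign in the 2 arms. The count was 40 without HeyA8 cisplatin culture 3. It lay between 73 and 91 without HeyC2 untreated culture 2 or 3, HeyA8 untreated culture 1 or 2, HeyC2 cisplatin culture 1 or 3, or HeyA8 cisplatin culture 1. Replication and histone genes stood among them, with 8 of 34 DNA replication genes and 6 of 57 histone genes. MCM6 had levels of 9.69, 9.53 and 9.73 in treated HeyC2, against 8.87 and 8.74 in treated HeyA8, with untreated levels of 9.998, 10.01 and 9.99 in HeyC2, against 10.61, 10.58 and 10.56 in HeyA8. HeyC2 was above HeyA8 with cisplatin (0.85) and below it without (-0.58), a change of 1.43 (adjusted p = 2.53e-09). CCNE2 had levels of 8.59, 8.61 and 8.68 in treated HeyC2, against 8.11 and 7.68 in treated HeyA8 (difference 0.73), which again ran opposite to the untreated difference of -1.09 (change 1.82, adjusted p = 4.43e-07). In treated cultures 8 of the replication genes were higher in HeyC2 and 1 lower, against 0 higher and 13 lower without drug.

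H2BC14 had levels of 5.52, 6.43 and 6.13 in treated HeyC2, against 7.45 and 7.40 in treated HeyA8, so the difference was -1.40 with cisplatin and -3.90 without (change 2.50, adjusted p = 4.12e-06). Treated HeyC2 cultures overlapped the untreated ones, whereas both treated HeyA8 cultures lay below every untreated HeyA8 culture. H3C12 (-0.74 with cisplatin, -2.86 without) and H2BC12 (-0.82 with cisplatin, -2.95 without) also had smaller differences with cisplatin, while H3C11 had -2.54 and -2.20 and no call for a change (adjusted p = 0.448). DDIT3 had levels of 7.90, 8.27 and 8.51 in treated HeyC2, against 8.43 and 8.69 in treated HeyA8, which overlapped (difference -0.33, adjusted p = 0.322; change -2.04, adjusted p = 5.57e-05). In the amino acid list 9 genes were higher with cisplatin and 1 lower, against 17 and 1 without, and DDIT3 and SESN2 were among 4 genes whose difference changed, while ASNS differed by 1.92 with cisplatin and had no call for a change (adjusted p = 0.413).

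CDKN1A, the p53-induced CDK inhibitor p21, had levels of 8.82, 8.79 and 8.85 in treated HeyC2, against 9.53 and 9.84 in treated HeyA8, and so had a call with drug and none without (-0.87, adjusted p = 1.09e-06; change -1.02, adjusted p = 0.000455). GDF15, a secreted stress cytokine picked after its values were seen, had levels of 9.01, 9.08 and 8.995 in treated HeyC2, against 11.69 and 11.87 in treated HeyA8, with an untreated difference of -0.13 (change -2.63, adjusted p = 2.26e-07). Of 32 p53 targets, 11 were lower in HeyC2 and 1 higher with cisplatin, against 3 lower and 6 higher without. IL1B stayed higher in HeyC2 by 1.27 with cisplatin, against 2.58 without, with HeyA8 levels of 10.67 and 10.83 in treated cultures. Its change of -1.31 (adjusted p = 0.00315) was lost without HeyA8 cisplatin culture 3. Since each line had its own dose, the drug's effect and the dose cannot be told apart.

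**Figure D5:**
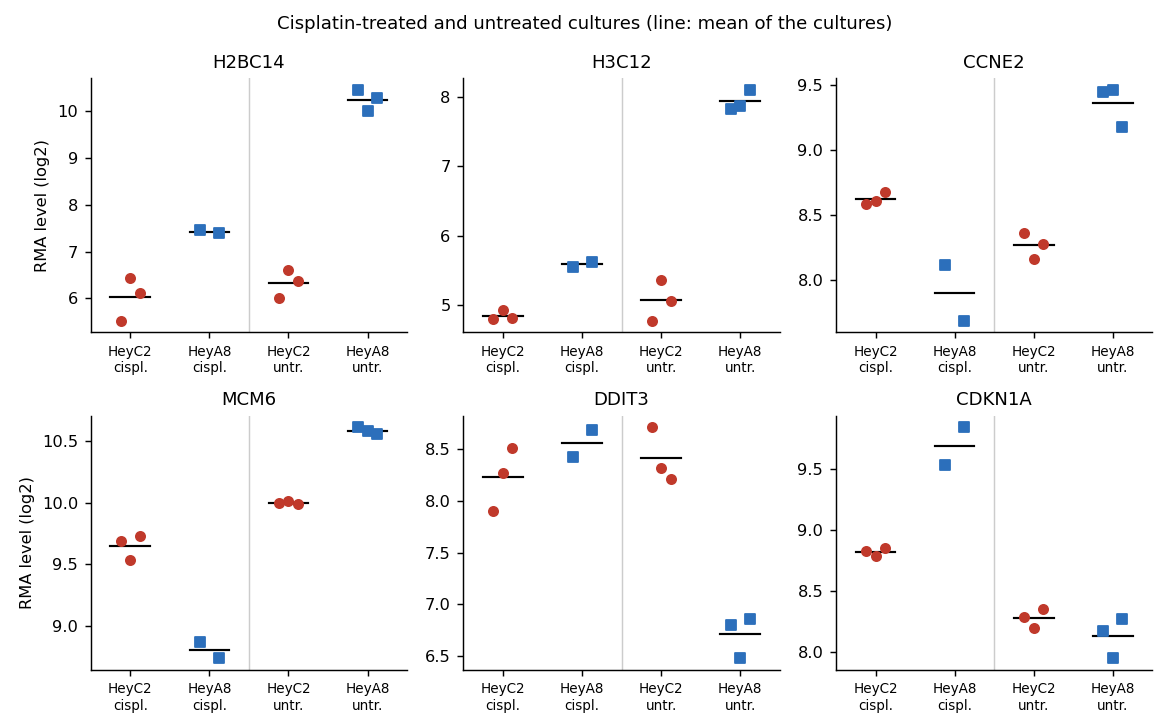
Log2 RMA levels (vertical axes) of 6 genes in single cultures, with HeyC2 as circles and HeyA8 as squares, cisplatin-treated cultures to the left of the grey line and untreated ones to the right, and a bar at each mean. For CCNE2 and MCM6 the order of the lines is opposite in the arms, and for CDKN1A the lines are apart only in treated cultures.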

How the data were processed

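RNA levels were measured on Affymetrix arrays, and the deposited values are log2 RMA levels made by the authors, per the submitters' processing notes; the array's annotation build is not given in the sources used here. Of 33297 probe sets, 19460 had 1 gene symbol, 1754 had several and 12083 were not named; symbols were updated for 19429 through RefSeq tables, and 1 probe set per gene, the one with the highest mean, gave 18417 genes. No column was left unmapped. Groups came from the titles and cell line labels. HeyC2 minus HeyA8 was fitted with limma 3.58.1 (R 4.3.3) over the 21 untreated cultures of 7 batch 1 lines, without a replicate block, and p-values were adjusted over all genes with Benjamini-Hochberg at 0.05. The treated difference and its change used both arms. Fits were tested on simulated data. Named genes were the 15 largest differences each way without overlap (sex-linked markers, pseudogenes and unnamed loci passed over), up to 4 called members of each list (2 where none passed) and 16 fixed genes, with the 3 highest and 3 lowest gene windows. Other genes named with values (ATF3, ATF4, CCL2, CDC25C, CHAC1, FN1, GCLM, GDF15, GSR, H1-3, HMOX1, IDI1, IL1A, IL6, INSIG1, NQO1, PHGDH, PSAT1, SLC7A5, TIGAR and the lineage markers) were picked after their values were seen. The comparison and the lists were chosen with earlier results of these data known, and 7 whole gene families after the differences were seen. Promoter letters are from RefSeq; 14221 genes matched. Alternatives covered the samples fitted, repeat arrays, scaling, low genes, probe sets, the prior, a minimum fold and each culture left out. Array number, not read depth, limits precision.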

Additional observations from a re-analysis of the deposited data

Results flagged for a closer look

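For 24 genes named in the text, the HeyC2 minus HeyA8 difference with cisplatin differed from that in untreated cultures by the test of the change itself (limma, adjusted over all genes). The change is the treated difference minus the untreated one. A rise of HeyC2 relative to HeyA8 was found for H2BC14 (2.50), H2BC12 (2.13), H3C12 (2.12), CCNE2 (1.82), MCM6 (1.43), MSH6 (0.89), CDC6 (0.84), CHEK1 (0.71), TFRC (0.66) and MCM4 (0.61). A fall of HeyC2 relative to HeyA8 was found for DDIT3 (-2.04), SAA1 (-1.81), IGFBP5 (-1.64), SAA2 (-1.59), IL1B (-1.31), DDIT4 (-1.23), CXCR4 (-1.20), SESN2 (-1.14), COL1A1 (-1.12), LOXL4 (-1.06), CDKN1A (-1.02), ANKRD1 (-0.98), ABCB4 (-0.81) and VEGFA (-0.77).

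In 11 fits that each left out 1 culture, 12 of the 24 stayed past the threshold every time: MCM6, CCNE2, H2BC14, H3C12, DDIT3, MSH6, CDKN1A, IGFBP5, SESN2, COL1A1, H2BC12 and CDC6. IL1B, LOXL4, TFRC and CHEK1 passed in 10 of the 11, failing without HeyA8 cisplatin culture 3. DDIT4 and ANKRD1 passed in 9, VEGFA in 8, CXCR4 in 4, SAA1, SAA2 and ABCB4 in 3, and MCM4 in 2. The sign of the change held for all 24 in these fits. With 2 treated HeyA8 cultures, leaving 1 out leaves a lone sample that is assumed to vary like the other groups.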

How the results depend on the processing

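The count of 4747 genes lay between 4462 and 5040 over the sets of samples, repeat arrays, scalings, filters on low genes, probe set rules and priors tried, and fell to 1424 when a change of more than 1.2-fold was tested and to 481 when calls were held to 2-fold. Leaving out 1 culture gave 3635 to 4617. The treated count of 3538 was 2256 to 3174 without 1 culture, 2256 being without HeyA8 cisplatin culture 3. The count of 146 changed genes was 40 to 153 without 1 culture. With every array shifted to 1 median, the untreated split was 1750 higher and 2927 lower. The share of changed genes with a rise was 54.1% in the fit reported, 65.5% with 18 lines and 61.9% with shifted arrays.

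Deviations of same-numbered cultures from their line means correlated at 0.26, 0.08 and 0.08. HeyC2 cultures 1 and 3 correlated best with the HeyA8 culture of the same number. HeyC2 culture 2 correlated about equally with HeyA8 culture 3 (0.087) and HeyA8 culture 2 (0.084). These values do not settle whether the numbers pair cultures, and the fit reported took no pairing. The replicate block gave 4747 untreated, 3442 treated and 139 changed genes, and 4958 untreated genes when only the 6 cultures were fitted. Of 202 named genes past the threshold, 152 had a value under all 20 settings run, since filters on low genes removed the rest, and 125 of those stayed past it in all. Counting each gene only where it had a value, 164 of 202 stayed past it, and 107 of the 108 at least 2-fold, PSG3 being the exception. Between 187 and 193 stayed past it without 1 culture. The sign turned for AXL (0.034 with repeat arrays in place of the first) and ZEB1 (-0.013 without HeyC2 untreated culture 1, up to 0.11 without HeyA8 untreated culture 1), neither past the threshold in any setting.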
